A study of Mus musculus with 12 samples.

Results

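The 10 genes Tmprss2, Fkbp5, Sord, Acsl3, Slc45a3, Ndrg1, Steap4, Abcc4, Zbtb16 and Homer2 are widely used as canonical targets of the androgen receptor. They were chosen by name for that reason, though with earlier results of these data known. All 10 were found among the 39179 genes of the deposited table, 1 row each. All 10 were also among the 16197 genes that passed a filter on low values, which asked for a log2 value of 4 or above in at least 6 libraries, and each was above that minimum in all 12 libraries. RNA came from prostates of mice aged 4 months of a hybrid strain (129/SvImJ and C57Bl/6J). Every animal was given paraquat, a herbicide that raises superoxide, so the 12 libraries hold no untreated group. One genotype was wild type (+/+) and the other null (-/-) for the gene under study, with 6 libraries of each.

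The androgen receptor is a nuclear receptor that binds testosterone or dihydrotestosterone, moves to the nucleus and binds androgen response elements, inverted repeats of a hexamer that the glucocorticoid receptor can bind as well. In prostate luminal cells it acts with pioneer and lineage factors such as FOXA1, HOXB13 and GATA2 and drives secretory, lipid and protease genes. The target genes serve different ends. Tmprss2 encodes a membrane serine protease, Sord the enzyme that turns sorbitol into fructose, Acsl3 an enzyme that activates long-chain fatty acids and Slc45a3 a membrane transporter called prostein. Abcc4 encodes an efflux pump, Steap4 a metalloreductase and Homer2 a scaffold protein. Fkbp5 encodes a cochaperone of steroid receptors that acts as feedback on them, Zbtb16 a zinc finger transcription factor and Ndrg1 a protein induced by stress and differentiation.

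Promoter sequences of 8 of the 10 genes were matched in RefSeq (GRCm38.p6), 250 bases before to 50 after an annotated start. Tmprss2, Sord and Acsl3 are shown because they were lower together in the null, and Fkbp5 and Steap4 because they had differences of the opposite sign. Capitals mark a GC box, the letters GGGCGG or CCGCCC on either strand. All are written 5′ to 3′ along the gene. The windows are chr16:97611146-97611445 on the minus strand for Tmprss2, chr2:122234589-122234888 on the plus strand for Sord, chr1:78657575-78657874 on the plus strand for Acsl3, chr17:28486100-28486399 on the minus strand for Fkbp5 and chr5:7960222-7960521 on the plus strand for Steap4.
Tmprss2: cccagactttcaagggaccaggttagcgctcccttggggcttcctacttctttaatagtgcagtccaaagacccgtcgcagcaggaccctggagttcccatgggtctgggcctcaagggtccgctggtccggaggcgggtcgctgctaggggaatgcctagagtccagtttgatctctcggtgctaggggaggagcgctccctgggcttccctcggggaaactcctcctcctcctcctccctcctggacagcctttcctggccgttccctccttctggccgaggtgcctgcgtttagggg
Sord: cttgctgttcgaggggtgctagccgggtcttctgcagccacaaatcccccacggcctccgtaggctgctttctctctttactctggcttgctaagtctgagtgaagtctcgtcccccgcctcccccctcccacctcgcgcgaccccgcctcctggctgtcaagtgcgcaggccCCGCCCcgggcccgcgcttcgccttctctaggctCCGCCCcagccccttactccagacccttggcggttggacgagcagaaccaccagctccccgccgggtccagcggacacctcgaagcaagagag
Acsl3: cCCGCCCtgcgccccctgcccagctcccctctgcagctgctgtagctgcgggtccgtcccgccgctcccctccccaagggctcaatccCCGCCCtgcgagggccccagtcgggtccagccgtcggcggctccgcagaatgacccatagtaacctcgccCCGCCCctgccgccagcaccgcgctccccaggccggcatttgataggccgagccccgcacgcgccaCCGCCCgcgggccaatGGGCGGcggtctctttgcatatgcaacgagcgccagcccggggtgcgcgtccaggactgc
Fkbp5: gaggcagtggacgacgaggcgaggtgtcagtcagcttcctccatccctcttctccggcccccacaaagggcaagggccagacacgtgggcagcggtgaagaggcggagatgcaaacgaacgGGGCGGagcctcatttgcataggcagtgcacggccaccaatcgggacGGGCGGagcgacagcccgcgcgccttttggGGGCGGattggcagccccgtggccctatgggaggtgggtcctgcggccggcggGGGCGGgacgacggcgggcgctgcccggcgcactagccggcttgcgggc
Steap4: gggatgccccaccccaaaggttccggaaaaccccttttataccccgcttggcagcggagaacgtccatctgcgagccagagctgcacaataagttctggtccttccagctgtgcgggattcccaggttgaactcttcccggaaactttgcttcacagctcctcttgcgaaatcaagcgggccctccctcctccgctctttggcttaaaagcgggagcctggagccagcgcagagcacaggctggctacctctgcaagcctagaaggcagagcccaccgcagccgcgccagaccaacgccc
The hexamer TGTTCT, searched on both strands, was in none of these 5 windows, and it is in 19.0% of the 32851 promoter windows of this length in RefSeq. Of the 11 windows of the 8 genes, it was in 1, at an internal start of Abcc4. The complete androgen response element, this hexamer after its reverse complement with any 3 bases between, was in none of the 11 and in 3 of all 32851. The letters TGTTTAC, the core bound by FOXA factors, were searched on both strands too and were in none of the 11, against 3.65% of all windows. GC boxes numbered 5 in Acsl3, 4 in Fkbp5, 2 in Sord and 0 in Tmprss2 and Steap4, against at least 1 in 35.7% of all windows. These counts describe the letters of short windows and leave out the introns and distal sites. The Fkbp5 window lies inside the annotated span of its gene, 28399094 to 28517527, so its outermost start was not searched.

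Values are the authors' normalized log2 values, and each difference is null minus wild type on that scale. Depth recovered from the high values was 14.8 to 21.7 M reads per library. When clustered within each genotype, the libraries fell into sets of 3 with similar profiles, libraries 1 to 3 and 4 to 6. Libraries of a set lay a median of 0.0776 to 0.141 apart over genes, and libraries of different sets of a genotype 0.274 to 0.352. The labels do not tie libraries to animals, and p-values then measure only the spread between these libraries, which may be technical. Each comparison was therefore fitted with limma at the library level (6 against 6) and at the set level, on the 4 set means (2 against 2), with p adjusted over all genes tested. A gene is said to have fallen or risen only if its adjusted p was under 0.05 at both levels, and the SE given is that of the set level. At the library level 65.9% of all genes tested passed (31.8% lower, 34.1% higher in the null), and at the set level 4.09% did (1.93% lower, 2.15% higher). Of the library-level calls 51.7% were higher, a share that became 76.8% with libraries scaled to their totals, 62.8% with totals that left out the 50 most abundant genes and 70.7% when centred on luminal markers. It was 58.0% with the upper quartile, 45.5% with quantile normalization and 47.7% with the length trend removed, with lower calls the more numerous under quantile normalization and the length correction. The median difference of all genes, 0.05, ran from -0.04 with quantile normalization to 0.37 with library totals. Prostate identity was checked on the secretory genes Pbsn and Msmb, at 18.43 and 15.71 in wild type. Both were lower in the null, at 11.06 and 12.79, so the check on these 2 genes covers the wild-type libraries only. Other prostate secretory genes did not all follow them. Azgp1 (14.50 in wild type, 14.38 in the null), Defb50 (15.74 and 15.68) and Apof (11.63 and 11.30) were called at neither level. At the library level 5 of 9 tested secretory genes were lower and 1 higher. Markers of the seminal vesicle, an adjacent gland, moved with genotype. The 8 genes together took at most 0.00115% of the linear total in any wild-type library. Their share was 16.2% to 16.4% in the first null set (libraries 1 to 3) and 0.716% to 0.728% in the other. Markers of the vas deferens and epididymis were high in the first null set as well, at 3304 to 3526 CPM (parts of the linear total), against 20.8 to 21.8 in the other null set and at most 19.9 in wild type.

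The 10 targets did not move as a block. Tmprss2, Sord and Acsl3 fell to 28.9% to 34.9% of their wild-type level, Fkbp5, Zbtb16 and Steap4 were 1.68-fold to 4.77-fold higher in the null libraries without passing at the set level, and the other 4 lay between. At the library level 4 of the 10 were lower and 5 higher, beside the background of 65.9% in either direction, and at the set level limma called 3 lower and 0 higher, beside 4.09%. An unadjusted set-level p was under 0.05 for 3 lower and 3 higher genes, beside 31.1% of all genes tested. Genotypes did not overlap for 4 genes that were lower and 3 that were higher, where the background is 22.7% and 21.5% of tested genes and 44.2% in all. The same 7 genes had 1 sign in all 4 pairings of a null with a wild-type set, as did 67.2% of tested genes. The median difference of the 10 was 0.18, beside 0.05 for all genes tested, and the median size without sign was 1.13, beside 0.48.

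**Figure D1:**
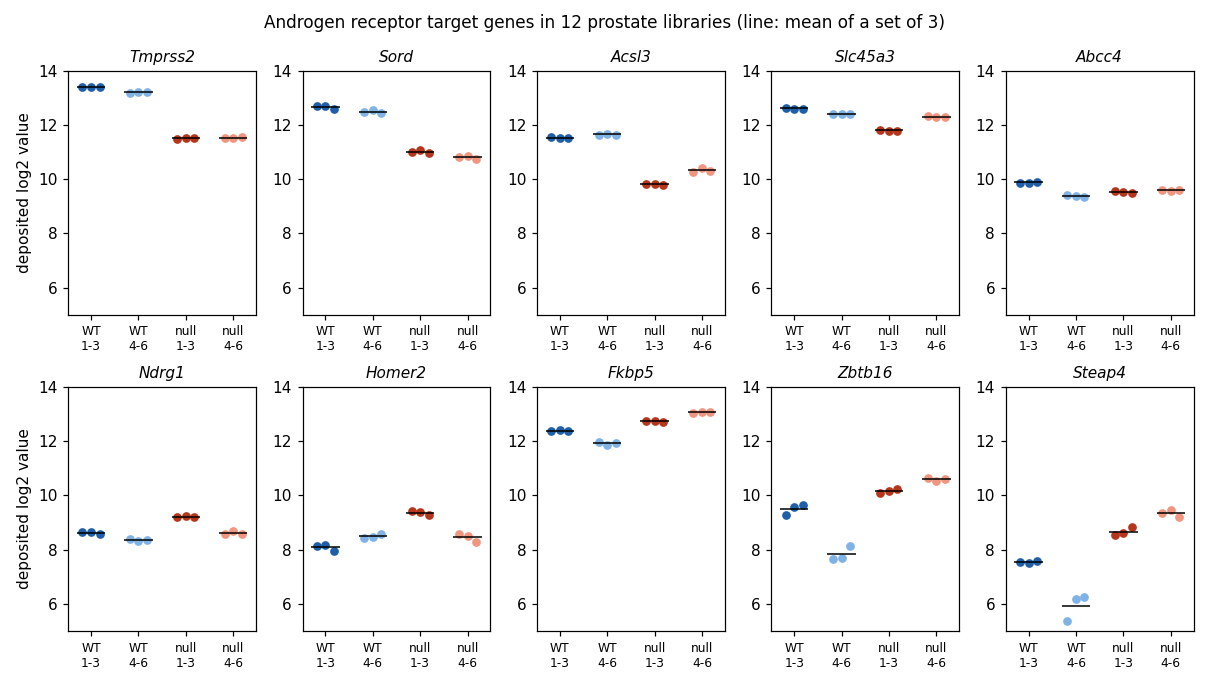
Deposited log2 values of the 10 target genes, 1 panel a gene, with the 4 sets of 3 libraries on the horizontal axis (WT, wild type). Points are libraries and lines are set means, and Tmprss2 sits near 13.3 in wild type and 11.5 in both null sets while Steap4 and Zbtb16 are lowest in wild-type libraries 4 to 6.

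Tmprss2 (ENSMUSG00000000385, GRCm38 chromosome 16, 97564682 to 97611195, minus strand) had values of 13.39, 13.42 and 13.41 in wild-type libraries 1 to 3 and 13.19, 13.23 and 13.21 in libraries 4 to 6. In the null they were 11.49, 11.52 and 11.51 in libraries 1 to 3 and 11.52, 11.50 and 11.56 in libraries 4 to 6. Every null library was below every wild-type library, and both null sets stood at the same level. Its values are high enough for whole reads to be recovered, 6893 to 11746 reads in wild type against 2670 to 3542 in the null. Tmprss2 fell by 1.79 (SE 0.22, library-level adjusted p = 1.50e-10, set-level adjusted p = 0.0147), a level of 28.9% of wild type. Over the 4 pairings of a null with a wild-type set the difference ran from -1.90 to -1.68, the narrowest range of the 10 genes. The near-equal null sets differ strongly in seminal vesicle RNA. Without null libraries 1 to 3, the libraries rich in that RNA, the difference was -1.78. Null libraries 4 to 6 still held 0.716% to 0.728% of seminal vesicle RNA, more than any wild-type library. The part of that RNA in the Tmprss2 difference was not tested.

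Sord (ENSMUSG00000027227, chromosome 2, 122234749 to 122265340, plus strand) had values of 12.70, 12.71 and 12.60, then 12.48, 12.55 and 12.44, in the wild-type sets. The null libraries were at 10.998, 11.07 and 10.96, then 10.80, 10.86 and 10.76. The genotypes did not overlap, and libraries 4 to 6 minus 1 to 3 gave -0.18 in wild type and -0.20 in the null. Sord fell by 1.67 (SE 0.20, library-level adjusted p = 1.36e-09, set-level adjusted p = 0.0147), to 31.4% of wild type. With the libraries centred on 6 luminal markers its difference was -1.41 and the set-level call was lost (adjusted p = 0.0552), an alternative chosen after seeing the data.

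Acsl3 (ENSMUSG00000032883, chromosome 1, 78657825 to 78707743, plus strand) was at 11.56, 11.51 and 11.51 in wild-type libraries 1 to 3 and at 11.65, 11.67 and 11.64 in libraries 4 to 6. Null libraries 1 to 3 were at 9.83, 9.83 and 9.77, and null libraries 4 to 6 were higher at 10.28, 10.42 and 10.29. No null library reached the lowest wild-type one. Acsl3 fell by 1.52 (SE 0.23, library-level adjusted p = 1.97e-07, set-level adjusted p = 0.0257), to 34.9% of wild type, and the difference was -1.26 without null libraries 1 to 3 and -1.78 without null libraries 4 to 6. In limma without its trend the set-level call was lost (adjusted p = 0.0583).

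Luminal cells are a known source of these transcripts, and 6 luminal markers (Krt8, Krt18, Cd24a, Epcam, Cdh1 and Dpp4) were read beside them. Their mean log2 value was 13.09 ± 0.12 in the wild type against 12.83 ± 0.11 in null libraries (SD, n = 6), a difference of -0.26. The 6 did not move together: Krt18 (-1.13), Cd24a (-0.99) and Krt8 (-0.29) were on the lower side, and Epcam (0.44), Cdh1 (0.28) and Dpp4 (0.10) on the higher. The list held Hoxb13 (-1.37) too, which encodes a partner of the receptor and was left out of the mean. With every library centred on that mean, the differences were -1.53 for Tmprss2, -1.41 for Sord and -1.26 for Acsl3. In bulk tissue fewer cells of a type and less RNA per cell cannot be told apart. The centring shifts all genes by the same amount, so it does not measure a luminal share. The part of tissue makeup in the differences of Tmprss2, Sord and Acsl3 was not tested.

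Slc45a3 (ENSMUSG00000026435, chromosome 1, 131962967 to 131982969) was lower in the null by a smaller step. It was at 12.63, 12.59 and 12.61, then 12.40, 12.39 and 12.42, in wild type and at 11.83, 11.80 and 11.79, then 12.31, 12.31 and 12.31, in the null. The genotypes did not overlap, but the means of null and wild-type libraries 4 to 6 differed by only -0.09. The difference was -0.45 (SE 0.26, library-level adjusted p = 0.00408, set-level adjusted p = 0.265). It was -0.20 without null libraries 1 to 3. The library-level call was lost with library totals (-0.13, adjusted p = 0.386), quantile normalization (-0.17, adjusted p = 0.154), luminal centring (-0.19, adjusted p = 0.155) and without wild-type libraries 1 to 3 (-0.35, adjusted p = 0.0606).

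For 3 targets every null library was above every wild-type one. Fkbp5 (ENSMUSG00000024222, chromosome 17, 28399094 to 28517527) was at 12.36, 12.41 and 12.38, then 11.97, 11.87 and 11.92, in wild type and at 12.75, 12.74 and 12.70, then 13.05, 13.06 and 13.09, in the null. Recovered reads were 2690 to 5752 in wild type against 7035 to 10228 in the null. The difference was 0.75 (SE 0.27, library-level adjusted p = 1.69e-04, set-level adjusted p = 0.130), a fold of 1.68. It ran from 0.34 to 1.15 over the pairings of sets.

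Zbtb16 (ENSMUSG00000066687, chromosome 9, 48654297 to 48836222) was uneven in wild type, at 9.27, 9.57 and 9.64 in libraries 1 to 3 and 7.64, 7.68 and 8.15 in libraries 4 to 6. In the null it was at 10.10, 10.17 and 10.25, then 10.63, 10.55 and 10.61. The difference was 1.72 (SE 0.52, library-level adjusted p = 8.22e-04, set-level adjusted p = 0.0999), and it was 0.89 without wild-type libraries 4 to 6 and 2.56 without wild-type libraries 1 to 3.

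Steap4 (ENSMUSG00000012428, chromosome 5, 7960457 to 7982213) showed the same shape, with 7.56, 7.52 and 7.59, then 5.36, 6.18 and 6.27, in wild type and 8.53, 8.60 and 8.84, then 9.34, 9.46 and 9.22, in the null. Every null library was again above the wild-type range. The difference was 2.25 (SE 0.55, library-level adjusted p = 1.73e-04, set-level adjusted p = 0.0728), the largest in size of the 10, and 1.44 without wild-type libraries 4 to 6. With library totals the set-level adjusted p was 0.0342 for Steap4 and 0.0488 for Zbtb16.

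Fkbp5, Zbtb16 and Steap4 shared the order of the 4 set means, wild-type libraries 4 to 6 lowest, then wild-type 1 to 3, null 1 to 3 and null 4 to 6, as 7.92% of tested genes did. Wild-type libraries 4 to 6 were below 1 to 3 by 1.67 for Zbtb16 and by 1.62 for Steap4, and 0.982% and 1.06% of tested genes had wild-type sets at least as far apart. The median gap was 0.29. These steps within wild type are close in size to the fall of Tmprss2 between genotypes.

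Markers of several other cell types were higher in the null as well. The summed basal markers stood at 166 to 205 CPM in wild type against 369 to 457 in the null. At the library level 5 of 6 basal genes were called higher and 1 lower. The background for this and the following lists is 34.1% of all genes tested called higher and 31.8% lower. Endothelial markers (5 of 5 called higher) stood at 39.8 to 54.4 against 98.7 to 148, adipocyte markers (5 of 5) at 20.2 to 36.8 against 81.3 to 126, and immune markers (5 of 10) at 68.9 to 81.1 against 123 to 177. Of 11 smooth muscle and fibroblast markers, 4 were lower (the muscle genes Acta2, Tagln, Des and Cnn1) and 6 higher at the library level, and of 4 tested skeletal muscle markers 0 were called. Their part in the higher values of Fkbp5, Zbtb16 and Steap4 was not tested.

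**Figure D2:**
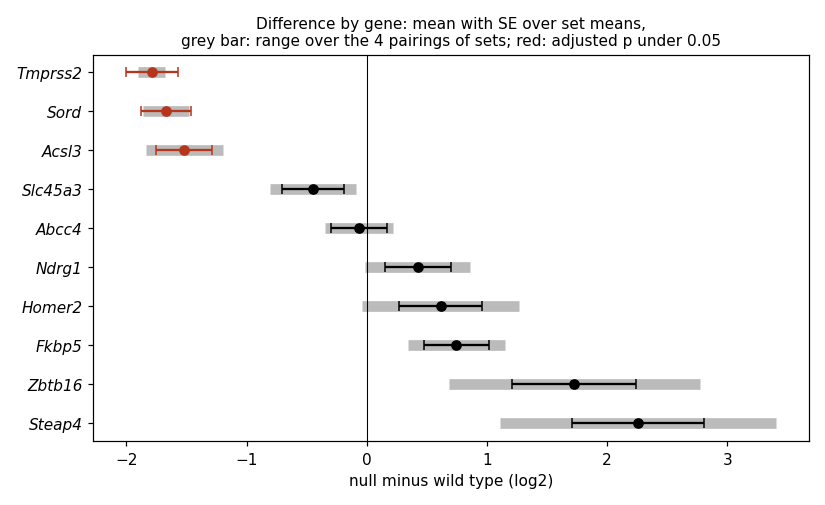
Difference null minus wild type (log2, horizontal axis) for each target gene, with the SE of limma over the set means as error bars and grey bars for the range over the 4 pairings of sets. Tmprss2, Sord and Acsl3 (red) passed at the set level, and the grey bars of Abcc4, Ndrg1 and Homer2 cross 0.

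Ndrg1 (ENSMUSG00000005125, chromosome 15, 66929318 to 66969640) was at 8.65, 8.65 and 8.59, then 8.40, 8.31 and 8.37, in wild type and at 9.20, 9.24 and 9.22, then 8.59, 8.68 and 8.58, in the null. Null libraries 4 to 6 overlapped wild-type libraries 1 to 3, so the genotypes overlap. The null libraries 1 to 3, with the higher values, are those rich in seminal vesicle and vas deferens markers, whose part in the values of Ndrg1 and Homer2 was not tested. The difference of 0.42 (SE 0.27, library-level adjusted p = 0.0168, set-level adjusted p = 0.317) was 0.12 without null libraries 1 to 3 (adjusted p = 0.313) and 0.29 without wild-type libraries 4 to 6 (adjusted p = 0.194).

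Homer2 (ENSMUSG00000025813, chromosome 7, 81600481 to 81707527) was at 8.15, 8.17 and 7.95, then 8.44, 8.47 and 8.57, in wild type. In the null it was at 9.42, 9.39 and 9.27 in libraries 1 to 3, above all others, and at 8.57, 8.51 and 8.27 in libraries 4 to 6, within the wild-type range. The difference was 0.61 (SE 0.35, library-level adjusted p = 0.0186, set-level adjusted p = 0.262). It was 0.16 without null libraries 1 to 3 (adjusted p = 0.353), 0.41 without wild-type libraries 1 to 3 (adjusted p = 0.187) and -0.03 with the transcript length trend removed (adjusted p = 0.912). Its longest annotated transcript has 10982 bases, the longest among the 10 genes.

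Abcc4 (ENSMUSG00000032849, chromosome 14, 118482692 to 118706219) was at 9.88, 9.87 and 9.89, then 9.42, 9.38 and 9.34, in wild type, and the null libraries, between 9.51 and 9.61, lay between those sets. Its difference was -0.07 (SE 0.23, library-level adjusted p = 0.606, set-level adjusted p = 0.857). The sign depended on the scaling and on the set left out: 0.25 with library totals, 0.01 with the upper quartile, 0.18 without wild-type libraries 1 to 3 (adjusted p = 0.00948) and -0.32 without wild-type libraries 4 to 6 (adjusted p = 4.29e-04). With the length trend removed it was -0.43 and called lower (adjusted p = 9.12e-04). No single direction between genotypes held over these settings.

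The spread of each gene over the 12 libraries was divided into parts between genotypes, between sets of a genotype and within sets. The part between genotypes was 99.3% for Tmprss2, 98.4% for Sord and 94.0% for Acsl3, then 76.9% for Fkbp5, 74.5% for Steap4 and 65.5% for Zbtb16. It was 57.4% for Slc45a3, 44.4% for Ndrg1, 41.8% for Homer2 and 3.20% for Abcc4, whose sets took 95.1%. Over all tested genes the medians were 54.6% between genotypes and 29.6% between sets, and the medians of the 10 were 70.0% and 27.6%.

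**Figure D3:**
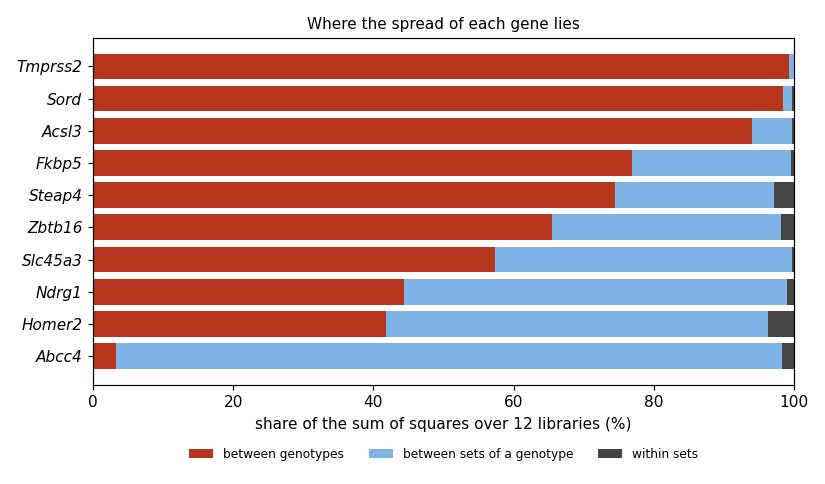
Share of each target gene's sum of squares over 12 libraries (percent, horizontal axis) between genotypes, between sets of 3 libraries of a genotype and within sets. The genotype share is 94.0% or more for Acsl3, Sord and Tmprss2, 41.8% to 76.9% for the next 6 genes and 3.20% for Abcc4.

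Levels were compared between genes as log2 value per kilobase of the longest annotated transcript. In wild type Sord was highest at 11.35, followed by Tmprss2 (10.85), Slc45a3 (10.77), Fkbp5 (10.21) and Acsl3 (9.61), then Abcc4 (7.12), Ndrg1 (6.48), Zbtb16 (6.30), Steap4 (5.09) and Homer2 (4.83). Tmprss2 and Slc45a3 were 0.08 apart, Ndrg1 and Zbtb16 0.17, and Steap4 and Homer2 0.25, less than the SD between libraries of at least 1 gene of each pair. In the null Fkbp5 was highest at 10.95, ahead of Slc45a3 (10.32), Sord (9.67) and Tmprss2 (9.06). Acsl3 (8.09) and Zbtb16 (8.03) then stood 0.06 apart, less than the SD of either, above Steap4 (7.34), Abcc4 (7.05), Ndrg1 (6.90) and Homer2 (5.45). Steap4 and Abcc4 were 0.29 apart in the null and Abcc4 and Ndrg1 0.15, within the SD of Steap4 and of Ndrg1.

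Relatives of each target were listed by gene family. Among membrane serine proteases, 6 of 15 passed the filter, and Tmprss2 was the 1 that fell. Hpn, encoding hepsin, was 1.65 higher (set-level adjusted p = 0.0737), and St14, encoding matriptase, differed by -0.16. In the polyol pathway, Akr1b3, the aldose reductase that makes the sorbitol Sord uses, fell by 1.94 (SE 0.31, set-level adjusted p = 0.0278). Khk, which phosphorylates the fructose that Sord makes, differed by -0.60 (set-level adjusted p = 0.186).

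Of the 5 long-chain acyl-CoA synthetase genes, Acsl3 was the 1 that fell. Acsl1, Acsl4 and Acsl6 had differences of 0.68, 0.40 and 0.70 and Acsl5 of -0.04, none passing at the set level. Steap1, a metalloreductase family member, fell by 2.38 (SE 0.40, set-level adjusted p = 0.0331), against a difference of 2.25 for Steap4. Steap2 (0.39) and Steap3 (0.72) did not pass at the set level.

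Among 8 tested Abcc transporters, Abcc5, an efflux pump for cyclic nucleotides, rose by 1.68 (SE 0.29, set-level adjusted p = 0.0354). Abcc2 averaged 6.31 in wild-type libraries against 3.52 in null ones, and as it passed the filter on low values through wild type alone no call is drawn from it. Of 14 tested FK506-binding protein genes, Fkbp11, of the secretory pathway, fell by 2.94 (SE 0.42, set-level adjusted p = 0.0219), and Fkbp4, the cochaperone that Fkbp5 counteracts at steroid receptors, differed by -0.68 (set-level adjusted p = 0.152). Homer1 (0.63) and Homer3 (0.86) had differences of the same sign as Homer2, without passing at the set level. Ndrg2 (0.52) and Ndrg4 (1.76) had the sign of Ndrg1 and Ndrg3 (-0.19) the opposite one, called at the library level (adjusted p = 0.00854) and not at the set level.

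**Figure D4:**
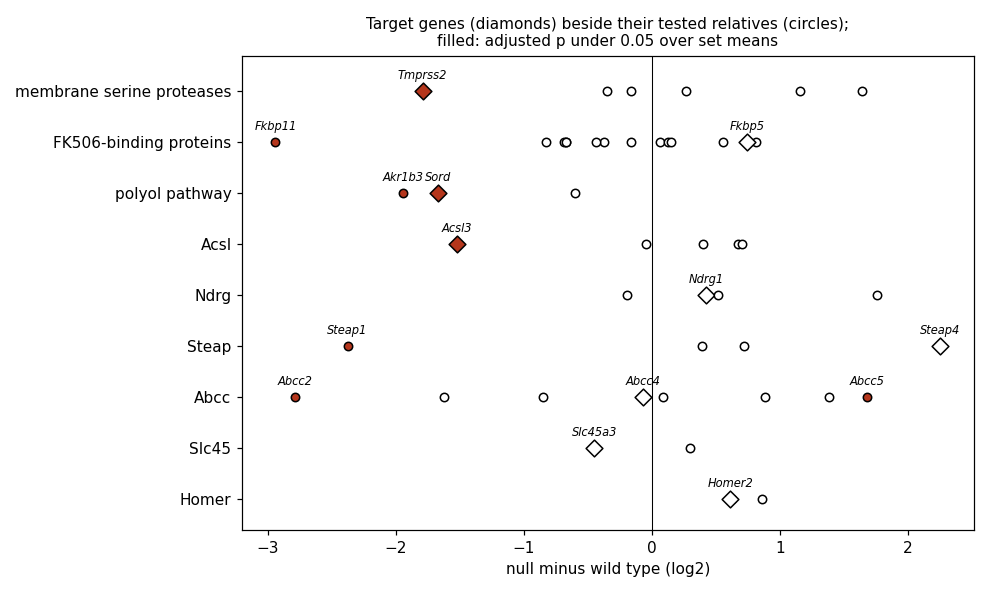
Difference null minus wild type (log2, horizontal axis) of the target genes (diamonds) and their tested relatives (circles), 1 row a family, filled where set-level limma passed an adjusted p of 0.05. Steap1 at -2.38 and Steap4 at 2.25 lie at opposite ends of their row, and Akr1b3 lies beside Sord. Abcc2 is filled but passed the filter on low values through wild type alone.

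Cofactors and other genes of steroid hormone signalling were listed as well. Of 18 tested genes, 8 were lower and 9 higher at the library level, and at the set level limma called 0 in either direction (4 lower and 6 higher at an unadjusted p of 0.05, beside 31.1% of all genes). Hoxb13 differed by -1.37 (set-level adjusted p = 0.0681), Gata2 by -0.64 (adjusted p = 0.124) and Foxa1 by -0.32 (adjusted p = 0.380). The coactivator genes Ncoa2 (0.96) and Ncoa3 (0.92) and the corepressor gene Ncor1 (0.72) were higher at the library level alone. Srd5a2, the main prostate enzyme that makes dihydrotestosterone, differed by 0.51 (set-level adjusted p = 0.361).

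A list of 12 steroid-responsive genes shared with the glucocorticoid receptor, Fkbp5 and Zbtb16 among them, had a median of 0.44. At the library level 7 passed as higher and 4 as lower. At the set level limma called 2 lower and 0 higher, beside 1.93% and 2.15% of all genes tested. An unadjusted set-level p was under 0.05 for 3 lower and 5 higher genes, beside 31.1% of all genes. The metallothionein genes Mt1 and Mt2 fell, by 3.50 (SE 0.33, set-level adjusted p = 0.00800) and 3.35 (SE 0.28, adjusted p = 0.00696). Klf9, a transcription factor gene, was 1.40 higher (adjusted p = 0.131), and its wild-type libraries 4 to 6 were below 1 to 3 by 1.62, a gap near those of Zbtb16 and Steap4. Sgk1, a kinase gene induced by corticosteroids, was 1.46 higher (adjusted p = 0.0575), while Tsc22d3 and Per1 had differences of 0.16 and -0.16. Ddit4 went the other way, with a difference of -1.07 (set-level adjusted p = 0.0508) and every null library below every wild-type library. The glucocorticoid receptor gene Nr3c1 differed by 0.27 (adjusted p = 0.493).

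A wider list of 89 androgen-responsive genes of human prostate cells, without the 10 targets, had 87 members tested and a median difference of 0.16. At the library level 26.4% passed as lower (23) and 47.1% as higher (41), beside 31.8% and 34.1% of all genes tested. At the set level 2 passed as lower and 3 as higher, 5.75% in all, beside 4.09% of all genes tested. Spdef, a luminal transcription factor gene, fell by 1.85 (SE 0.18, set-level adjusted p = 0.00881), and Zbtb10 fell by 0.99 (SE 0.18, adjusted p = 0.0421). Abhd2, a lipase gene, rose by 1.94 (SE 0.34, adjusted p = 0.0358), and Ccnd1, encoding cyclin D1, rose by 2.12 (SE 0.42, adjusted p = 0.0494). The other of the 3 was Inpp4b, a phosphatase gene, which averaged 3.21 in wild-type libraries against 5.58 in null ones. It passed the filter through the null libraries alone, so that its place in the count is no support. Of 9 tested secretory products of the mouse prostate, many of which depend on androgen, 5 passed as lower and 1 as higher at the library level. Pbsn and Msmb fell at both levels, with differences of -7.37 and -2.92. Ceacam10 was the 1 called higher, by 4.37 (set-level adjusted p = 0.0581), and Azgp1, Apof and Defb50 were called at neither level. Sbpl varied widely between wild-type libraries (7.57 ± 1.76, SD, n = 6), and no call is drawn from it because it passed the filter through wild type alone.

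Genes with the most similar profile to each target were ranked by Pearson's r over the 12 libraries, a description of 4 sets of libraries and not a test. Genes with predicted-gene or clone names were left out of the ranking, while counts above 0.95 cover all genes tested. Closest to Tmprss2 were Herpud1 (r = 0.999) and Msmb (r = 0.999), and 558 genes had r above 0.95 with it. Sord was closest to Pgm2l1 and B3gnt7 (r = 0.998 each) and Acsl3 to Prdx6b and Fut9 (r = 0.998 each). Steap4 was closest to Nfkb1 (r = 0.997) and Fam117b (r = 0.992), Zbtb16 to Camk1d (r = 0.994) and Il33 (r = 0.993), and Fkbp5 to Mpeg1 (r = 0.997) and Fat1 (r = 0.994). Slc45a3 was closest to Abo (r = 0.997) and Fam210b (r = 0.995), Ndrg1 to Cald1 (r = 0.992) and Zfp91 (r = 0.990), and Homer2 to Filip1l (r = 0.987) and Cr2 (r = 0.979). Abcc4 had 6 genes above 0.95, the fewest of the 10, and the closest ranked were Wsb2 (r = 0.974) and Ezr (r = 0.973).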

How the data were processed

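Poly-A RNA was prepared with a TruSeq kit and sequenced on a HiSeq2000, per the labels' protocols. Tools listed in the submitters' processing notes were TopHat, Cufflinks, DESeq and CASAVA (1.8.2), and the builds listed were GRCm38.p2 and mm9, with no role or order. Strand setting and multiple mapping: not given in the sources used here. The deposited table holds log2 values normalized by the authors, without a stated transformation, and differences of low genes may be understated. Symbols and positions came from GENCODE M21 (GRCm38), which matched 37693 of 39179 IDs (96.2%).

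On the linear scale, values of 2500 to 5500 times a factor, less an offset, were whole within 0.1 for 100% of values, against 20% by chance. Below that range this did not hold (19.5% to 21.1% for 500 to 1500), so no count test across all genes was run. Libraries of a set differed by more than sampling noise (median chi-square 0.989 to 6.05 over 634 genes, 0.455 for noise alone, 47.0 to 102 between sets) and were not merged.

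Tests were limma 3.58.1 (trend, two-sided, R 4.3.3) on the log2 values, over 12 libraries and over 4 set means, each adjusted by Benjamini-Hochberg across the 16197 genes. The fits were tested on simulated data with independent noise in each library and no effect shared by a set. That simulation cannot show how the library-level fit behaves when libraries of a set are alike. Clustering used average linkage with 2 clusters per genotype. Alternatives were scalings, filters, a pseudocount of 16, library weights, the variance model, the length trend, the threshold and leaving out libraries and sets. The genes named are the 10 targets, list members passing both fits and the 2 genes most similar to each target, with predicted-gene and clone names left out. Family, cofactor and steroid-responsive genes needed for description are named too. Members and lists were chosen with earlier results of these data known. The targeted gene is not reported here.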

Additional observations from a re-analysis of the deposited data

How the results depend on the processing

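Tmprss2, Sord and Acsl3 kept their direction and call over the libraries under all 29 alternatives, from -2.13 to -1.48, -1.77 to -1.36 and -1.78 to -1.20. At the 0.05 threshold, Tmprss2 was called over the set means under the 10 scalings, filters and models tried, and Sord and Acsl3 under 9 each. The 10670 genes called over the 12 libraries became 5052 with the set as a random block and 662 over the set means, and 9923 to 10637 when 1 library was left out. Members called higher, 5, became 3 with the random block, without null libraries 1 to 3 or at an adjusted p of 0.01, and 0 over the set means, and stayed 4 lower and 5 higher when any 1 library was left out. Over the set means, 0 members were lower at an adjusted p of 0.01, and 2 were higher with library totals. Abcc4 changed sign with library totals (0.25), upper quartile (0.0113), totals without the 50 most abundant genes (0.0818), luminal centring (0.20) and without wild-type libraries 1 to 3 (0.18), and Homer2 with the length trend removed (-0.0261); the cause was not tested. In the wider androgen-responsive list over the set means, 2 lower became 1 with library totals, upper quartile, totals without the 50 most abundant genes, no filter, luminal centring, limma without trend and the threshold of 0.01, and 4 with the length trend removed. Its 3 higher became 18 with library totals, 5 with no filter, 1 with luminal centring and 0 with limma without trend or the threshold of 0.01. Luminal centring and all alternatives for the wider list were chosen after seeing the data. No paired analysis was possible because the labels give the genotypes no shared replicate numbers.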

Other observations

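Ndrg1 is also induced by low oxygen, and 14 genes of that response were read beside it. At the library level 5 passed as lower and 6 as higher (limma, adjusted p of 0.05), and at the set level 0 in either direction (2 lower and 3 higher at an unadjusted p of 0.05, beside 31.1% of all genes). Pfkfb3, a regulator of glycolysis singled out for its values, had a mean of 14.90 over the null libraries 1 to 3, 8.76 over the other null set and 8.04 and 7.97 over the wild-type sets. Ndrg4, a relative of Ndrg1 also singled out for its values, had a mean of 9.69 over the null libraries 1 to 3 and 6.55 over the other null set, near the wild-type sets at 6.52 and 6.19.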
